A study of Mus musculus with 6 samples.

Results

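NF-kappaB is a family of transcription factors that govern inflammatory, immune and survival genes. The 10 genes described here are its subunits (Nfkb1, Nfkb2, Rel, Rela and Relb) and inhibitors or feedback genes of the pathway (Nfkbia, Nfkbie, Nfkbiz, Bcl3 and Tnfaip3). They were taken by symbol from a table of 24054 genes, in which all 10 were found. All 10 also passed the filter on low values, as did 12223 genes in total. The libraries came from spleen cells of 6 mice, selected on c-Kit (CD117), a receptor of blood stem and progenitor cells, with magnetic beads. Kit itself was read in all libraries, at 99.2 to 130 TPM in AML and 145 to 152 TPM in MPN. Every mouse was Flt3 ITD/ITD, with an internal tandem duplication in both copies of the receptor tyrosine kinase gene Flt3. The AML mice (acute myeloid leukaemia, n = 3) were Dnmt3a fl/- with MxCre, a Cre recombinase under the interferon-responsive Mx promoter. The MPN mice (myeloproliferative neoplasm, n = 3) were Dnmt3a fl/fl, with no Cre in their titles. Dnmt3a encodes a DNA methyltransferase. Ages and any induction of Cre are not given in the sources used here. Disease state, Dnmt3a alleles and Cre cannot be told apart in this design. By Xist, 2 of the AML mice and 0 of the MPN mice were female.

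Subunits act as dimers. In resting cells they are held in the cytoplasm by inhibitors of kappaB, of which Nfkbia encodes the best known, IkB-alpha. In the canonical route, a kinase complex marks these inhibitors for destruction, and dimers containing the products of Rela or Rel enter the nucleus. In the non-canonical route, the kinase encoded by Map3k14 drives processing of the Nfkb2 product, which then acts with the Relb product. Nfkbia, Nfkbie, Nfkbiz, Bcl3 and Tnfaip3 are textbook targets of the dimers, as are Nfkb1, Nfkb2, Rel and Relb themselves, which closes feedback loops. In blood, the pathway is known for roles in lymphocytes, dendritic cells and activated myeloid cells.

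Stretches of promoter are shown first because most members are classed as textbook targets of the factors. RefSeq promoters on GRCm38.p6, from 250 bases before to 50 bases after a start, were matched for 7 of the 10 members: Bcl3, Nfkb2, Nfkbia, Nfkbie, Rel, Rela and Tnfaip3. At least 1 match to the kappaB consensus, on either strand, was found for 6 of these 7 genes. Of all 32851 promoters of the same length, 4.51% held a match, and 5.14% of all genes with an entry had one in at least 1 of their promoters, which is how the 6 of 7 were counted. Rela was the member with no match in its window. The 150 bases before a start follow, 5′ to 3′ on the gene's strand, with matches in capitals. Where a gene had more than 1 promoter entry, as Nfkb2 and Tnfaip3 did, the one with the most matches is shown. Overlapping matches run together. They lie at chr19:46304587-46304736 (plus strand, Nfkb2), chr11:23770970-23771119 (minus, Rel), chr12:55492648-55492797 (minus, Nfkbia), chr17:45555550-45555699 (plus, Nfkbie), chr10:19015411-19015560 (minus, Tnfaip3) and chr19:5637391-5637540 (plus, Rela).
Nfkb2: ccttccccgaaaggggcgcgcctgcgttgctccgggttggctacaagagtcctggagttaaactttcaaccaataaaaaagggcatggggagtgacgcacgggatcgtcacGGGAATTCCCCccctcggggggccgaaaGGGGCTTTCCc
Rel: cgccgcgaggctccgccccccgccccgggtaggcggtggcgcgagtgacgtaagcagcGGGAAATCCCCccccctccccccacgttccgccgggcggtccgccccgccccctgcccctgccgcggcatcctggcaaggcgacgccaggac
Nfkbia: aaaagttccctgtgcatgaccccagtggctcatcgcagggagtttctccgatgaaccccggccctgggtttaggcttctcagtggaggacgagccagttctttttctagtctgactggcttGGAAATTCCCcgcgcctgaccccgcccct
Nfkbie: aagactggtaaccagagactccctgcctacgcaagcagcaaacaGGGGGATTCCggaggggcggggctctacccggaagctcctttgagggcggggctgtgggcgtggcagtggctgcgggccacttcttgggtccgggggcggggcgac
Tnfaip3: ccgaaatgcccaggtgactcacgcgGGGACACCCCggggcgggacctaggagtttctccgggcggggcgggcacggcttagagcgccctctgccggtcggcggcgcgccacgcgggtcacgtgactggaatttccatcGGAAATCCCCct
Rela: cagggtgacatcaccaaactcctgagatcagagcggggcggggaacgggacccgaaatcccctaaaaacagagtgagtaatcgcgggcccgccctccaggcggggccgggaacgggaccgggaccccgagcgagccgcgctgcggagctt

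In the entries shown, matches began 39, 38 and 11 bases before the start in Nfkb2 and 92 and 91 bases in Rel. They began 29 bases before it in Nfkbia, 106 bases in Nfkbie, and 125 and 12 bases in Tnfaip3. At other starts of Nfkb2, matches began 236 and 225 bases before and 10 bases after a start. The other Tnfaip3 entry held 0 matches. In Bcl3 the match lay 2 bases past the start and is not shown. A match describes letters only and is no evidence that a factor was bound. Most members were known as targets before the search, so matches were likely in advance. Any link between the matches and the differences between the groups was not tested.

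Of the 10 members, 7 fell in AML against MPN: Nfkb2, Rel, Relb, Nfkbie, Nfkbiz, Bcl3 and Tnfaip3. The test was limma on log2(TPM + 1), where TPM is a level scaled to transcript length and library size. A gene passed with a Benjamini-Hochberg adjusted p below 0.05 over all tested genes. None of the 10 rose in limma, also at an unadjusted p under 0.05, where 8 were lower. Of all tested genes, 30.1% passed in either direction and 10% passed as lower in AML. Nfkb1, Rela and Nfkbia did not pass. The median log2 fold change of the members was -1.58, beside 0.13 over all tested genes. The libraries hold bulk RNA, so fewer cells of a type and less RNA per cell cannot be told apart. The groups did not overlap, with every AML mouse lower, for the 7 that fell, and 16.1% of all tested genes were separated that way.

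**Figure D1:**
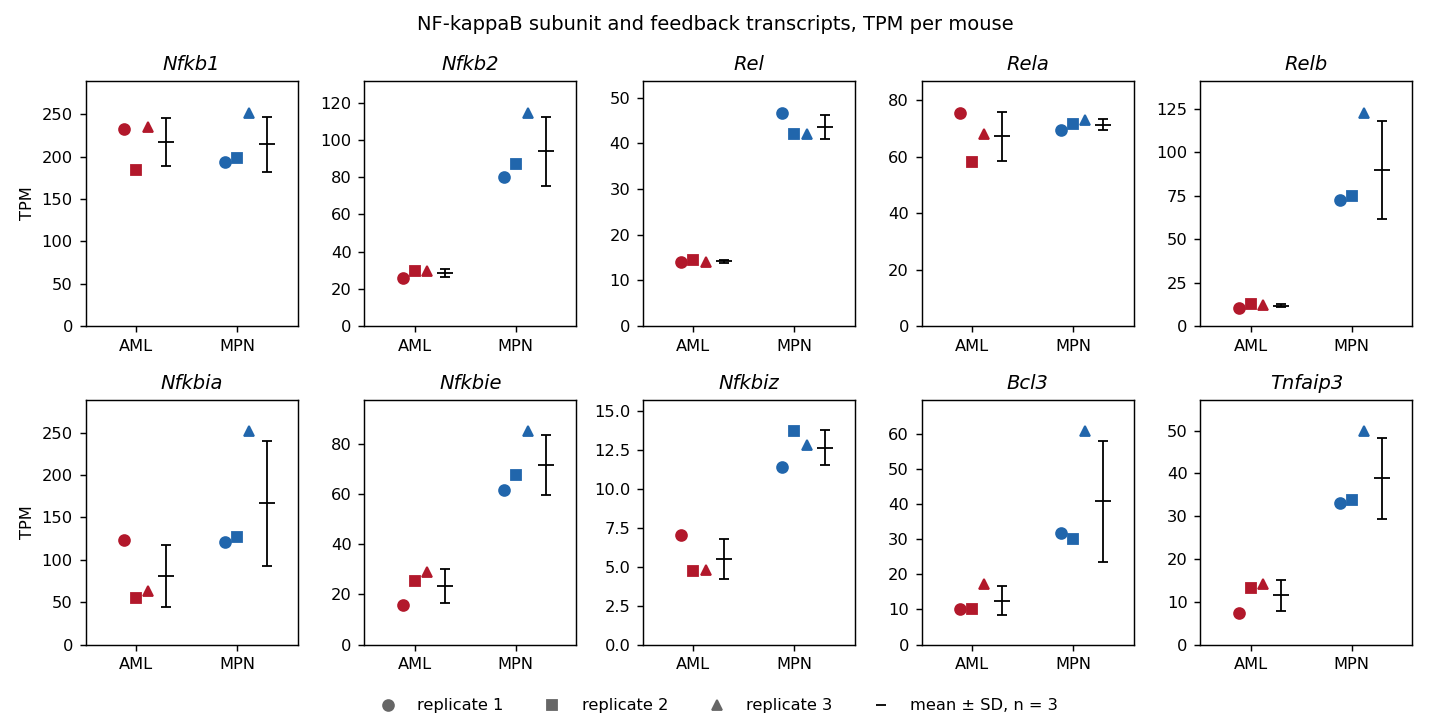
TPM (y axis, from 0, own scale per panel) of each member in the AML (red) and MPN (blue) mice, with a symbol per replicate and the mean ± SD in black (n = 3). The groups are separate for Nfkb2, Rel, Relb, Nfkbie, Nfkbiz, Bcl3 and Tnfaip3, and overlap for Nfkb1, Rela and Nfkbia.

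Depth was read from the files. Steps in the RPKM table (reads per kilobase of gene, scaled to library size) gave depths of 0.739 to 1.29 times the mean over the 6 libraries. The same steps returned whole numbers of reads, within 0.001, for all 10 members in all 6 libraries. The smallest was at least 1064 reads, for Nfkbiz in AML replicate 3, where counting error is at most 3.07%. For Relb it was at least 1575 reads. For Rel in AML the counting error at its fewest reads was at most 2.35%, and the spread between the mice was 1.95%. Because 2.35% is an upper bound, it is not known which of these is larger. Dnmt3a, the gene that differs by genotype, stood at 11.5, 13.5 and 12.9 TPM in AML replicates 1 to 3 and at 33.9, 29.3 and 33.4 TPM in MPN replicates 1 to 3.

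Among the subunits, 3 of 5 fell. Relb, whose product pairs with processed Nfkb2 in the non-canonical route, stood at 10.6, 12.6 and 12.1 TPM in AML replicates 1 to 3. In MPN replicates 1 to 3 it stood at 72.7, 75.0 and 122.7 TPM. The AML mice lay close together, and the lowest MPN mouse was several times higher than any of them. The mean fell from 90.1 ± 28.2 to 11.8 ± 1.08 TPM (SD, n = 3 per group), leaving 13% of what the MPN mice had. At -2.80 ± 0.21 (SE) its log2 fold change was the largest of the members (limma adjusted p = 0.000272). Relb (ENSMUSG00000002983) spans 19606217 to 19629438 of chromosome 7 (minus strand) of GRCm38, 179 kb from Bcl3.

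Nfkb2 encodes the precursor p100, from which the DNA-binding p52 is cut. It stood at 25.8, 29.5 and 29.7 TPM in the AML mice and at 79.9, 87.0 and 114 TPM in the MPN mice. All AML values were below the lowest MPN value, and MPN replicate 3 was the highest library, as it was for Relb. The level in AML was 30.2% of that in MPN (log2 fold change -1.68 ± 0.16 SE, limma adjusted p = 0.000546). Nfkb2 (ENSMUSG00000025225) spans 46304320 to 46312385 of chromosome 19 (plus strand).

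Rel, which encodes c-Rel, a subunit best known from lymphocytes, had the least spread of the members within AML. It stood at 13.9, 14.4 and 14.0 TPM in the AML mice and at 46.6, 42.0 and 42.0 TPM in the MPN mice. The coefficient of variation was 1.95% within AML and 6.17% within MPN, and the gap between the groups was far wider. Within MPN, Rela varied less, at 2.69%. The AML level was 32.5% of MPN (log2 fold change -1.56 ± 0.12 SE, limma adjusted p = 0.000267). Unlike for Nfkb2 and Relb, MPN replicate 3 was not the highest library for Rel. Rel (ENSMUSG00000020275) spans 23736847 to 23770970 of chromosome 11 (minus strand).

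Nfkb1 and Rela encode the partners of the most common canonical dimer. Nfkb1, the precursor p105 of p50, was the most abundant member, at 232, 185 and 235 TPM in the AML mice and 194, 198 and 252 TPM in the MPN mice. The groups overlapped, with MPN replicate 3 the highest library and AML replicate 2 the lowest. Its log2 fold change was 0.02, with a 95% confidence interval from -0.33 to 0.37 (limma adjusted p = 0.925). Its sign turned under median scaling and quantile normalization. Rela, which encodes the transactivating subunit p65, stood at 75.5, 58.2 and 67.9 TPM in the AML mice and at 69.4, 71.6 and 73.2 TPM in the MPN mice. The MPN values fell inside the AML range. Its log2 fold change was -0.09, with an interval from -0.38 to 0.19 (limma adjusted p = 0.589). These intervals leave room for small differences and do not reach the fold changes of the 3 subunits that fell. Nfkb1 (ENSMUSG00000028163) spans 135584655 to 135691547 of chromosome 3 (minus strand) and Rela (ENSMUSG00000024927) 5637483 to 5648130 of chromosome 19 (plus strand).

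**Figure D2:**
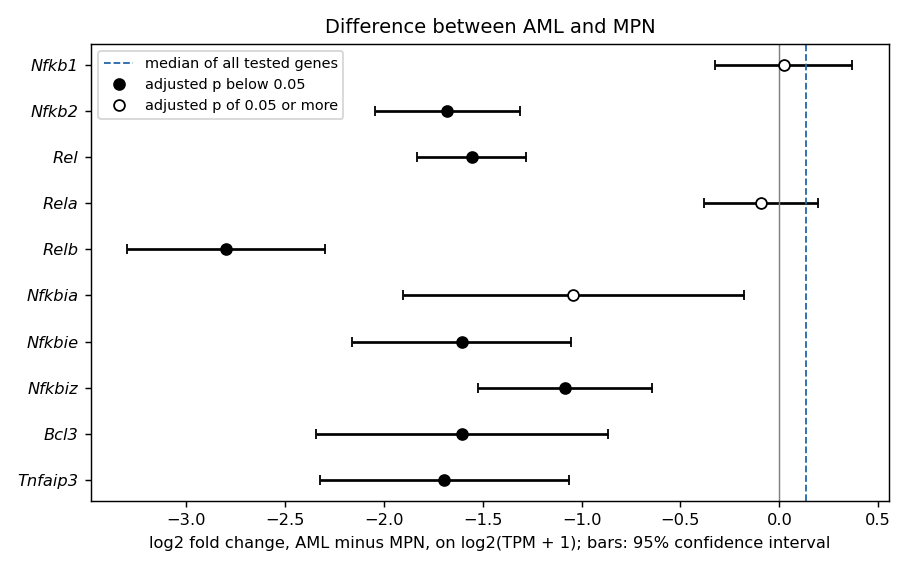
Log2 fold change of each member, AML minus MPN, on log2(TPM + 1), with 95% confidence intervals from limma. Filled points passed an adjusted p of 0.05, the grey line marks 0 and the dashed line marks the median of all tested genes, 0.13. Relb lies farthest left at -2.80, and Nfkb1 and Rela lie beside 0.

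The makeup of the subunit transcripts differed between the groups. TPM is a level per length, so the genes can be summed. The 5 subunits together reached 299 to 359 TPM in AML and 462 to 604 TPM in MPN. Nfkb1 made up 61.7% to 65.5% of that sum in AML and 41.7% to 41.9% in MPN. Relb made up 2.95% to 4.22% in AML and 15.7% to 20.3% in MPN. Nfkb2 took 7.19% to 9.84% against 17.3% to 19.0%, and Rel 3.89% to 4.82% against 6.95% to 10.1%. Rela took 18.9% to 21.1% against 12.1% to 15.1%. No share overlapped between the groups. A share rises when the other subunits fall, so the higher shares of Nfkb1 and Rela are no rise in level.

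**Figure D3:**
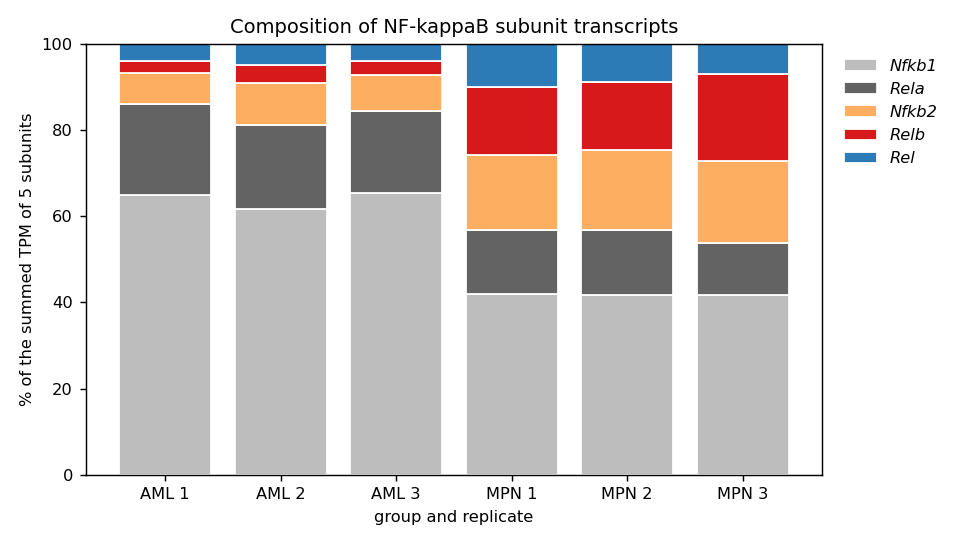
Share of each subunit (y axis, % of the summed TPM of the 5 subunits) in each mouse, with AML replicates on the left and MPN replicates on the right. Nfkb1 takes 61.7% to 65.5% in AML and 41.7% to 41.9% in MPN, and Relb 2.95% to 4.22% against 15.7% to 20.3%.

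Ratios within a library do not depend on how libraries are scaled. There were 0.406 to 0.429 Relb transcripts per Nfkb2 transcript in AML and 0.862 to 1.07 in MPN, so Relb and Nfkb2 had changed unequally. Per Rela transcript there were 0.184 to 0.248 of Rel in AML and 0.573 to 0.672 in MPN. Per Nfkb1 transcript there were 0.111 to 0.160 of Nfkb2 in AML and 0.412 to 0.455 in MPN. None of these ratios overlapped between the groups, nor did those of Relb and of Nfkbia to Rela. The ratios of Nfkbie, Tnfaip3 and Bcl3 to Nfkbia did overlap. All these ratios are descriptions and were not tested.

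Of the 5 inhibitors and feedback genes, 4 fell. Nfkbie encodes IkB-epsilon, which retains dimers in the cytoplasm. It stood at 15.6, 25.3 and 29.0 TPM in the AML mice and at 61.6, 67.7 and 84.9 TPM in the MPN mice. Even the highest AML mouse lay well under the lowest MPN mouse. The AML level was 32.6% of MPN (log2 fold change -1.61 ± 0.24 SE, limma adjusted p = 0.00327). Nfkbie (ENSMUSG00000023947) spans 45555703 to 45563169 of chromosome 17 (plus strand).

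Nfkbia, the other classical inhibitor, did not pass. It stood at 122.8, 55.2 and 63.7 TPM in the AML mice and at 121, 127 and 251 TPM in the MPN mice. AML replicate 1 lay between MPN replicates 1 and 2, while the other AML mice lay below every MPN mouse. The means were 80.6 ± 36.8 TPM in AML and 166 ± 73.6 TPM in MPN (SD, n = 3 each). The log2 fold change was -1.04, with a 95% confidence interval from -1.90 to -0.18 and a limma adjusted p of 0.0695. Without AML replicate 1 it passed, at -1.39 with a limma adjusted p of 0.0192. There, 8 of the 10 members fell, beside 1201 of 12223 tested genes that passed as lower. With weights per library Nfkbia passed as well (-1.03, adjusted p = 0.00683), but 5436 of all genes passed there, against 3678 without weights. Over all alternatives the adjusted p of Nfkbia ran from 0.00683 to 0.191. AML replicate 1 was highest of the AML mice for Nfkbia and lowest of them for Nfkbie, with 0.127 Nfkbie transcripts per Nfkbia transcript there. That ratio was 0.454 and 0.458 in the other AML mice and 0.338 to 0.532 in the MPN mice. Nfkbia (ENSMUSG00000021025) spans 55489410 to 55492647 of chromosome 12 (minus strand).

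Nfkbiz and Bcl3 encode nuclear proteins of the inhibitor family, which bind p50 or p52 on DNA and can raise transcription. Nfkbiz was the least abundant member, at 7.0, 4.73 and 4.76 TPM in the AML mice and 11.4, 13.7 and 12.8 TPM in the MPN mice. The groups were separate, with AML replicate 1 the closest to MPN. The AML level was 43.5% of MPN (log2 fold change -1.08 ± 0.19 SE, limma adjusted p = 0.00589). Bcl3 stood at 10, 10.1 and 17.2 TPM in the AML mice and at 31.7, 30.1 and 60.8 TPM in the MPN mice. Its AML level was 30.5% of MPN (log2 fold change -1.60 ± 0.31 SE, limma adjusted p = 0.00941). The groups were again separate, and replicate 3 was highest in each. Nfkbiz (ENSMUSG00000035356) spans 55811375 to 55838899 of chromosome 16 and Bcl3 (ENSMUSG00000053175) 19808462 to 19822770 of chromosome 7, both minus strand.

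Tnfaip3 encodes A20, a ubiquitin-editing enzyme that shuts off signals to the kinase complex. It stood at 7.34, 13.1 and 14.1 TPM in the AML mice and at 33.1, 33.7 and 49.8 TPM in the MPN mice. The groups were separate, and AML replicate 1 was the lowest library. The AML level was 29.6% of MPN (log2 fold change -1.69 ± 0.27 SE, limma adjusted p = 0.00426). Tnfaip3 (ENSMUSG00000019850) spans 19000910 to 19015657 of chromosome 10 (minus strand).

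Within the groups, the members varied in different ways. In MPN replicate 3, 8 of the 10 were the highest of the MPN mice, as were 17.7% of all tested genes. At 1.3 or more times the mean of MPN replicates 1 and 2 in that mouse were 6 members, beside 5.24% of all tested genes. These were Nfkbia (2.03 times), Bcl3 (1.97), Relb (1.66), Tnfaip3 (1.49), Nfkb2 (1.37) and Nfkbie (1.31), while Rel was at 0.947 times. Without MPN replicate 3, 7 members still passed, and 906 of 12223 tested genes passed as lower. AML replicate 1 was the lowest AML mouse for 6 members, beside 31.3% of all tested genes. It stood at 0.540 times the mean of the other AML mice for Tnfaip3 and at 0.574 times for Nfkbie, yet at 2.06 times for Nfkbia and 1.48 times for Nfkbiz. Markers of dendritic cells, monocytes, macrophages and mature neutrophils also summed to their lowest level in AML replicate 1. Progenitor markers were lowest of the AML mice there as well (4602 TPM). The B cell, T and NK cell and erythroid lists were instead lowest of the AML mice in replicate 3. Erythroid genes were highest of the AML mice in replicate 1 (1335 TPM). The part of any of these cells in these values was not tested.

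In the RPKM table, 7 members fell and 10.8% of all genes tested there were lower in AML. The AML level of Relb was 13.2% of MPN in that table and that of Tnfaip3 30.0%. Within the sequencing run that held all libraries except MPN replicate 1, 7 members fell, beside 757 of 12223 tested genes that passed as lower. With a term for sex, in which AML replicate 3, a male, carries the contrast with MPN, 5 members fell, beside 4.38% of all tested genes. Bcl3 did not pass there, at a log2 fold change of -1.12 (limma adjusted p = 0.128), nor did Tnfaip3, at -1.38 (adjusted p = 0.0588).

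Genes acting above the subunits were described from lists of textbook members. The kinase list held 11 genes, for kinases of the inhibitors and for their activators. Ikbkg, Tab1, Tab2 and Tab3 in it encode partner proteins without kinase activity. Of the 11 genes, 1 fell, 0 rose and 10 did not pass limma. Their median log2 fold change was 0.02, and 2 were lower and 0 higher at an unadjusted p under 0.05. That 1 of 11 is near the 10% of all tested genes that passed as lower. The one that fell was Map3k14, the kinase NIK of the non-canonical route, from 47.6 ± 4.12 to 18.4 ± 7.34 TPM (log2 fold change -1.39 ± 0.27 SE, adjusted p = 0.00911). With sex in the model that call was lost (-0.85, adjusted p = 0.111). Chuk, a catalytic kinase of both routes, stood at 53.7 ± 13.3 TPM (AML) and 71.6 ± 16.2 TPM (MPN), with an adjusted p of 0.199. Map3k8, a kinase held by the Nfkb1 precursor, had 12.1 ± 3.56 and 18.6 ± 1.86 TPM (adjusted p = 0.0689). It passed under 4 of 16 alternatives, and over all of them its adjusted p ran from 0.00803 to 0.657. Ikbke, a kinase related to those of the complex, had 18.9 ± 6.16 and 12.2 ± 4.04 TPM (adjusted p = 0.144).

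Of 16 receptor adaptors, 3 fell, 0 rose and 13 did not pass (median -0.25, and 6 lower and 1 higher at an unadjusted p under 0.05). Over all tested genes, 10% passed as lower and 20.1% as higher. Traf1, an adaptor of TNF receptors, fell from 102 ± 21.6 to 21.9 ± 10.8 TPM (log2 fold change -2.28 ± 0.38 SE, limma adjusted p = 0.00488). Traf5, of the same family, fell from 21.4 ± 1.04 to 8.63 ± 3.73 TPM (adjusted p = 0.0136), and Malt1, a protease downstream of antigen receptors, from 41.2 ± 1.54 to 21.8 ± 0.229 TPM (adjusted p = 0.00165). Irak3, which restrains Toll-like receptor signals, stood at 21.9 ± 7.10 TPM (AML) and 11.6 ± 2.41 TPM (MPN), with an adjusted p of 0.0547. The Traf1 and Traf5 calls ended with a term for sex (adjusted p = 0.0590 and 0.178). That of Traf5 also ended without MPN replicate 2 or 3 (adjusted p = 0.0509 and 0.0529). Irak3 passed in 3 of 16 alternatives: without AML replicate 3 (1.10 in log2, adjusted p of 0.00942), with weights per library (0.0114) and in the RPKM table (0.0494).

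Of 14 ubiquitin enzymes and partners of A20, 4 fell, 2 rose and 8 did not pass (median -0.18), beside 10% lower and 20.1% higher over all tested genes. Birc3, a ubiquitin ligase that keeps Map3k14 protein low, fell from 115 ± 8.10 to 36.8 ± 4.53 TPM (log2 fold change -1.63 ± 0.12 SE, limma adjusted p = 0.000275). Its paralog Birc2 fell from 43.5 ± 0.750 to 30.0 ± 3.62 TPM (adjusted p = 0.0191). Cyld, a deubiquitinase that restrains the pathway, fell from 32.9 ± 1.78 to 21.4 ± 1.03 TPM (adjusted p = 0.00984). Tax1bp1, an adaptor that brings A20 to its substrates, rose from 109 ± 13.3 to 198 ± 24.0 TPM (adjusted p = 0.00438). The other gene that fell was Rnf31 and the other that rose was Otud7b, both named after their values were seen. The Birc2 call ended without any 1 of the MPN mice (adjusted p of 0.0503 to 0.0821) and that of Cyld without MPN replicate 2 (0.0582). With a term for sex, Cyld and Tax1bp1 did not pass (adjusted p = 0.130 and 0.0533). Of the inhibitors outside the members, Nfkbid fell from 19.2 ± 1.74 to 11.6 ± 1.08 TPM (adjusted p = 0.0139). Nfkbib had 34.0 ± 3.87 and 33.9 ± 1.97 TPM (adjusted p = 0.996). The Nfkbid call ended without MPN replicate 1 or 2 (adjusted p = 0.0588 and 0.0724), and also when sex was modelled (0.166).

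**Figure D4:**
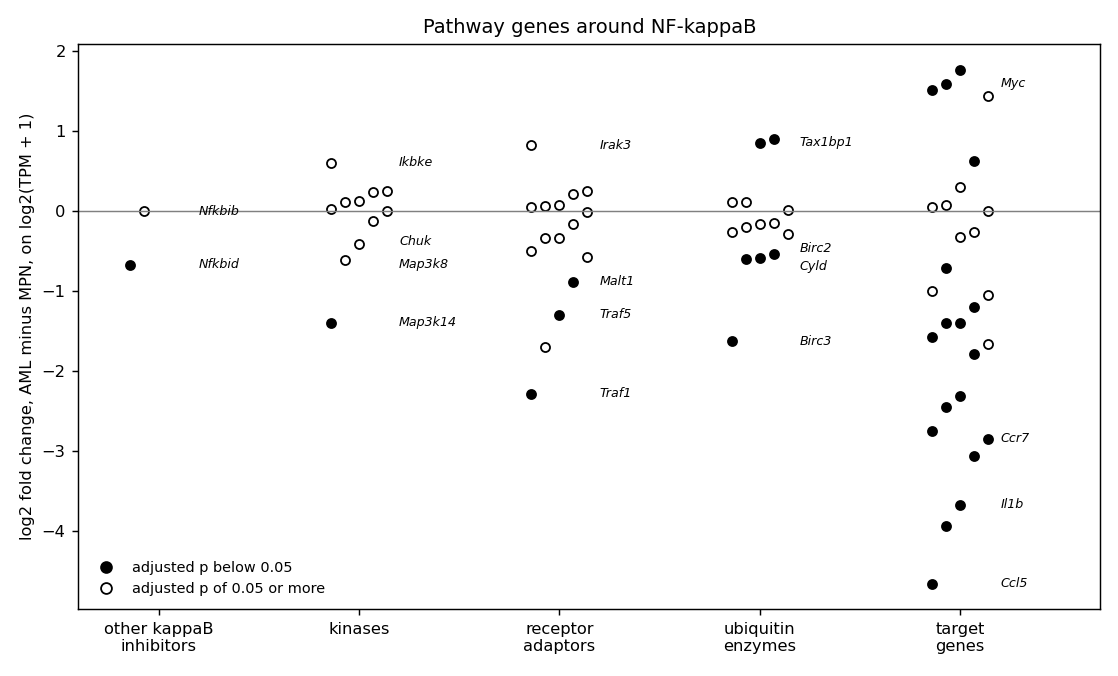
Log2 fold change, AML minus MPN (y axis, on log2(TPM + 1)), of each tested gene in 5 lists around NF-kappaB, with filled points for an adjusted p below 0.05 and labels for the genes with the smallest p of each list. Target genes range from Ccl5 at -4.65 upward, and 1 of 11 genes in the kinase list passed as lower, beside 10% of all tested genes.

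Of 34 textbook target genes outside the members, 28 were tested, of which 14 fell, 4 rose and 10 did not pass (median -1.12). Cxcl1, Cxcl2, Il6, Ptgs2, Nos2 and Csf2 were under the filter. Ccl5, a chemokine, fell from 493 ± 174 to 18.6 ± 6.20 TPM and Ccr7, a chemokine receptor of dendritic cells and lymphocytes, from 50.3 ± 11.1 to 6.10 ± 1.3 TPM. Il1b, which encodes interleukin-1 beta, fell from 33.8 ± 5.81 to 1.91 ± 1.19 TPM. Their limma adjusted p were 0.000173, 0.000275 and 0.000546. Myc, a growth regulator with many other inputs, rose from 79.8 ± 6.29 to 243 ± 36.3 TPM (adjusted p = 0.000365). Bcl2a1a, Bcl2a1b and Bcl2a1d, near-identical paralogs whose reads may be split uncertainly, did not pass. The other three that rose, named after their values were seen, were Bcl2l1, Ccl3 and Sod2. Over the 5 lists together, 71 genes were tested, of which 23 fell (10% over all tested genes) and 6 rose (20.1%). The count of 29 that passed became 19 without MPN replicate 2 and 19 without MPN replicate 3, and 13 with a term for sex.

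Many markers of mature cells were also lower in AML, though not in every list or mouse. Over all tested genes, 10% passed as lower in AML and 20.1% as higher. Of 7 tested B cell markers 6 fell, and the list summed to 27.8 to 37.1 TPM in AML and 81.9 to 108 TPM in MPN. Cd79b, which did not pass, made up most of the AML sum, and without it the sums were 1.71 to 3.17 against 54.9 to 69.8 TPM. Of 13 dendritic cell markers 6 fell and 1 rose, with a sum of 555 to 2007 TPM in AML and 2143 to 2688 TPM in MPN. Irf8, which did not pass, was the most abundant of them, while Cd209a stood at 1.12 to 3.44 TPM in AML and 172 to 310 TPM in MPN. In AML replicate 3, the AML mouse with the highest dendritic cell sum, that sum was 93.6% of that in the lowest MPN mouse. Irf8 alone gave 1101 of its 2007 TPM, above the 700 to 975 TPM of Irf8 in the MPN mice. Single markers differed there. Clec9a, at 201 TPM, lay inside its MPN range, while Cd209a, at 1.66 TPM, and Irf4, at 1.26 TPM, lay far below theirs. Relb was at 16.6% of its lowest MPN value in that AML mouse, Rel at 33.4% and Nfkb2 at 37.2%. All 11 tested macrophage markers fell (87.1 to 188 against 418 to 537 TPM), and C1qa was listed at 0 in AML replicates 2 and 3. Of 11 monocyte markers 8 fell and 2, Cd14 and Fcgr3, rose (1115 to 3314 against 4159 to 4962 TPM). Of 11 neutrophil markers 8 fell and 0 rose (7445 to 21676 against 31774 to 50475 TPM). For T and NK cells, 8 of 11 markers fell and 2, Nkg7 and Lat, rose. Their sum was higher in AML (314 to 516 against 191 to 197 TPM), but without Nkg7 and Lat it was lower, at 3.80 to 5.82 against 75.4 to 100.9 TPM. Nkg7 and Lat, like Cd79b above, were left out after their values were seen. Leaving out the 2 that rose made a lower sum likely in advance. Among erythroid genes 1 of 10 fell, near the share of all genes, and 5 were lower at an unadjusted p under 0.05 (72.7 to 1335 against 493 to 3045 TPM). Of the progenitor markers 6 of 10 rose and 0 fell (4602 to 11115 against 3502 to 4841 TPM). Some genes stand in more than 1 list: Csf1r is a macrophage and a monocyte marker, Flt3 a dendritic cell and a progenitor marker, and Vcam1 and Mmp9 are also among the target genes. The part of these cells in the fall of the members was not tested.

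The genes most like Relb over the 6 libraries, by Pearson's r of log2(TPM + 1), were Lrrc16b, Cd4 and Cd22, each with r of 0.999. They share with Relb the gap between the groups, and Lrrc16b averaged only 1.62 TPM in MPN. Those most like Nfkb1 were Arl6ip5, Tsc22d3 and Pitpna, with r of 0.972, 0.971 and 0.960, and these did not pass either.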

How the data were processed

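RNA of c-Kit+ spleen cells from 3 AML and 3 MPN mice was sequenced as stranded, poly-A selected, paired 75-base reads, per the labels' protocols. The submitters' processing notes name TopHat2, RSEM, Bowtie2 and the builds mm9 and mm10, with no role or version for each. The authors deposited a table of gene-level TPM, which are RSEM results per the file headers, and a table of RPKM per Ensembl gene, whose aligner and build are not given in the sources used here. Columns were mapped to mice by the mouse number in the file headers. MPN replicate 1 carries another run number there than the other 5 libraries.

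TPM are not counts, so limma 3.58.1 (R 4.3.3, trend on, Benjamini-Hochberg adjustment) was run on log2(TPM + 1). Genes needed 1 TPM in 3 or more of the 6 libraries. Fold changes on this scale understate the change of low genes. The deposited RPKM table served as a check and for depth: its low values are whole steps, apparently with 1 read added to every gene, so relative depth and reads per member were read from them. Read numbers are lower bounds because a common factor may remain. The procedure was tested on simulated data. Symbols that spreadsheets had turned into dates numbered 27.

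The 10 members, the lists of pathway and marker genes and the tests were chosen with earlier results of these data known. Genes named are the members, the 4 genes of each pathway list with the smallest p, Dnmt3a, Flt3 and Kit, and the 3 genes most correlated with the member of largest fold change and with the most abundant one. Single marker genes, the Bcl2a1 paralogs, Bcl2l1, Ccl3, Sod2, Rnf31 and Otud7b are named outside this rule, after their values were seen. Gene positions are from GENCODE M21 on GRCm38 and promoters from RefSeq on GRCm38.p6, for location only. The kappaB consensus was searched on both strands.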

Additional observations from a re-analysis of the deposited data

How the results depend on the processing

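Across 16 alternatives each (other pseudocounts, filters, scalings, the RPKM table, no trend, weights per library, a term for sex, and each mouse left out), Nfkb2, Rel, Relb, Nfkbie and Nfkbiz passed as lower in AML in all 16, Bcl3 and Tnfaip3 in 15, Nfkbia in 2, and Nfkb1 and Rela in 0. The number of members that passed ran from 5 with a term for sex to 8, and leaving out 1 mouse gave 7 to 8. With 1 mouse left out, 718 to 1402 of 12223 tested genes passed as lower. Over all genes, 3678 passed, 1208 with a term for sex and 2009 to 3705 with 1 mouse left out (2277, 2009 and 2280 without MPN replicates 1, 2 and 3). Higher calls made up 66.7% of them, and 59.0% under median scaling. With weights per library 5436 genes passed, and the estimate of those weights did not reach its convergence tolerance. Of the pathway genes, 29 passed, 13 with a term for sex and 19 to 34 with 1 mouse left out. The cause of these changes was not tested.

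Among the genes named, directions turned only for genes that passed in no setting. Nfkb1 went to -0.063 (median scaling) and -0.093 (quantile normalization), and with 1 mouse left out ran from -0.047 to 0.14. Rela ran from -0.18 to 0.0054 with 1 mouse left out. Nfkbib went to 0.14 with a term for sex and ran from -0.073 to 0.087 with 1 mouse left out. Arl6ip5 went to -0.077 (median scaling) and -0.094 (quantile normalization), and ran from -0.059 to 0.11 with 1 mouse left out. Tsc22d3 went to 0.34 with a term for sex and ran from -0.40 to 0.51. Pitpna went to -0.030 under median scaling and -0.031 under quantile normalization. The cause was not tested.

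With 3 mice a group, and females among the AML mice only, sex and disease are separated by 1 AML mouse. No paired analysis was possible because the replicate numbers only follow accession order.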
